A study of Mus musculus with 9 samples.

Results

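The expression of 9 genes of bone mineralization and of the early osteocyte was followed in the fracture callus: Dmp1, Phex, Mepe, Enpp1, Phospho1, Smpd3, Slc20a1, Slc20a2 and Pdpn. They were chosen by symbol for their known roles and not by a cut on their measured values, but with earlier results of these data known. They make up 9 of the 22054 genes in the expression table. Callus RNA of male wild-type C57BL/6J mice, labelled as 7 weeks of age, was sequenced as 9 libraries in 3 groups of 3, each library being labelled a separate biosample. Every animal had a femoral fracture, and callus was taken on day 7. The H-151 group received the STING inhibitor H-151 at 750 nmol in 200 μl by daily intraperitoneal injection for a week. The SR-717 group received the STING agonist SR-717 at 30 mg/kg in the same volume and by the same route, and the PBS group received the buffer alone. Both drugs reached the whole animal, and a callus library mixes bone, cartilage, marrow, muscle and immune cells. The extraction text of the labels speaks of cell lines, whereas the tissue label reads bone and the methods of the study name callus.

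Bone mineral forms first inside matrix vesicles, which bud from osteoblasts and hypertrophic chondrocytes, and then spreads along collagen. Phosphate for the crystal is released by phosphatases inside and outside the vesicle, while pyrophosphate, an inhibitor of crystal growth, is made outside the cell by ENPP1 and removed by the alkaline phosphatase ALPL. An osteoblast that becomes buried in matrix turns into an osteocyte, extends dendrites, and begins to make proteins such as DMP1, PHEX and MEPE that control local mineral and phosphate in the body.

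The libraries held 16987398 to 23272480 expected counts each, and all 9 genes had enough counts to be tested. Osteoblast markers were present in every library and summed to between 38300 and 75820 CPM (counts scaled to library size, with TMM normalization). Chondrocyte markers were uneven: they summed to 838 CPM in SR-717 replicate 1, 2487 CPM in PBS replicate 1 and at least 6252 CPM in the other 7 libraries. SR-717 replicate 1 stood apart on the main axis of variation, followed by PBS replicate 1. SR-717 replicate 1 had the highest neutrophil sum (13790 CPM) and the highest macrophage sum (2150 CPM). Values without these libraries are given, where computed, beside the results that they move.

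Compared per transcript length (TPM, values scaled to gene length and library size, as the authors computed them), the most abundant of the 9 genes was Phospho1, with a median of 432 TPM over the 9 libraries. Dmp1 followed at 162 TPM and Smpd3 at 137 TPM. The level of Phospho1 was above that of Dmp1 in 9 of 9 libraries, Dmp1 was above Smpd3 in 8 of 9, and Smpd3 was above Pdpn in 7 of 9. In SR-717 replicate 1 and PBS replicate 1, Pdpn (137 and 110 TPM) was above Dmp1 (91.6 and 72.5 TPM) and Smpd3 (38.2 and 63.45 TPM). By median, Pdpn (53.4 TPM), Slc20a2 (41.8 TPM), Enpp1 (28.7 TPM), Mepe (24.7 TPM), Slc20a1 (24.01 TPM) and Phex (16.2 TPM) formed the lower part. Neighbours there changed places: Mepe was above Slc20a1 in 4 of 9 libraries, and Pdpn above Slc20a2 and Slc20a1 above Phex in 6 of 9 each.

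The 250 bases before the annotated start of transcription are shown for 4 of the genes. Dmp1 and Phex varied together, Mepe varied with Sost, and Phospho1 varied with Sp7, as described below. These windows were taken from RefSeq on build GRCm38.p6, where 7 of the 9 genes had an entry and a gene can have more than 1 start. Each is written 5′ to 3′ on the gene's strand. Capitals mark matches, on either strand, to the RUNX motif TGTGGT, which reads ACCACA on the opposite strand, to the GC box GGGCGG, which reads CCGCCC there, and to TAATTA, a core bound by homeobox proteins.
Dmp1, chr5:104202367-104202616, plus strand: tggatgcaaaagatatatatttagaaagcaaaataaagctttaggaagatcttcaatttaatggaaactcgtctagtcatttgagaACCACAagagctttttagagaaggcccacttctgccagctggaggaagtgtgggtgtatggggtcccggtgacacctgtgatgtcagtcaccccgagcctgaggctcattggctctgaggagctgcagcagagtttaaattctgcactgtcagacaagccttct
Phex, chrX:157415287-157415536, minus strand: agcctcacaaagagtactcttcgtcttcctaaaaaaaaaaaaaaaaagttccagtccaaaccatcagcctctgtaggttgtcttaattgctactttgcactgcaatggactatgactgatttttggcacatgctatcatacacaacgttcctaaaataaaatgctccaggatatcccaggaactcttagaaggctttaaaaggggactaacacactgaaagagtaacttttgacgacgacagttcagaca
Mepe, chr5:104325079-104325328, plus strand: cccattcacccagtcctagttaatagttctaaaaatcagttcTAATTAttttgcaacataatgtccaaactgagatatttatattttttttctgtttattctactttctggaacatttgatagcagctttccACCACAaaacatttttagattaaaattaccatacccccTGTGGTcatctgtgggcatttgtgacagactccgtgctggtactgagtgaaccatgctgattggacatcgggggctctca
Phospho1, chr11:95824250-95824499, plus strand: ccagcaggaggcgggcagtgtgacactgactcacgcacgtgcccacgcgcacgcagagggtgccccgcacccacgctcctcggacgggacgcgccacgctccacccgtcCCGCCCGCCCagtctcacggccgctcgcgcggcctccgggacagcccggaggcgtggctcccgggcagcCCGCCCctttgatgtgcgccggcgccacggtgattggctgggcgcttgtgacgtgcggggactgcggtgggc

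The Dmp1 window held a RUNX match that begins 164 bases before the start. The table has a further Dmp1 start, with a window at chr5:104197325-104197574 that held none of the 3 motifs. Mepe held RUNX matches at 118 and 80 bases and the TAATTA core at 208 bases. Phospho1 held GC boxes at 141, 137 and 72 bases, the first 2 of which overlap, and these letters were not in the Phex window. Over the 9 windows of the 7 genes, 4 held the RUNX motif and 4 the GC box, against 14.0% and 32.7% of 32851 windows of the same length, and 1 held TAATTA, against 4.84%. The GC content of the 4 windows printed was 45.6% for Dmp1, 39.2% for Phex, 38.0% for Mepe and 75.6% for Phospho1. A match is a description of the letters, not a site of binding.

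Dmp1 (ENSMUSG00000029307, chr5:104202613-104214102, plus strand, GRCm38) encodes an acidic matrix phosphoprotein of osteoblasts and osteocytes that binds calcium. Its levels were 218, 194 and 423 CPM in H-151 replicates 1, 2 and 3, 105, 176 and 896 CPM in PBS replicates 1, 2 and 3, and 152, 416 and 265 CPM in SR-717 replicates 1, 2 and 3. The 3 groups overlapped, and PBS held both the lowest and the highest library. PBS replicate 3 alone was above every other library by more than 2-fold. The means were 279 ± 126 CPM for H-151, 392 ± 438 CPM for PBS and 277 ± 132 CPM for SR-717 (SD, n = 3 each). In bulk tissue such as this, fewer cells of a type and less RNA per cell cannot be told apart.

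Phex (ENSMUSG00000057457, chrX:157162075-157415312, minus strand) encodes an osteoblast and osteocyte endopeptidase whose loss causes X-linked hypophosphataemia. It measured 37.6, 37.3 and 78.1 CPM in the H-151 libraries, 21.2, 33.6 and 129 CPM in the PBS libraries, and 25.8, 75.8 and 33.0 CPM in the SR-717 libraries, in replicate order. The groups overlapped, with PBS replicate 3 again the highest and PBS replicate 1 the lowest. The ratio of Dmp1 to Phex in TPM stayed between 7.80 and 12.2 over all 9 libraries, although each gene varied by more than 6-fold.

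Mepe (ENSMUSG00000053863, chr5:104325329-104338611, plus strand) encodes a matrix phosphoglycoprotein of osteocytes whose acidic peptide inhibits mineral growth. Its levels were 33.2, 30.0 and 17.7 CPM under H-151, 6.28, 25.5 and 24.8 CPM under PBS, and 7.70, 23.6 and 14.8 CPM under SR-717. The 2 lowest values belonged to PBS replicate 1 and SR-717 replicate 1, and the 2 highest were H-151 libraries, but H-151 replicate 3 lay inside the range of PBS and of SR-717. The ratio of Dmp1 to Mepe in TPM ran from 3.94 to 22.0, so these 2 neighbours on chromosome 5 did not keep a steady ratio. They lie there in the order Dspp, Dmp1, Ibsp, Mepe and Spp1, a cluster of related secreted phosphoproteins of bone and tooth. Dspp, the dentine member, had 1 count over all 9 libraries.

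Phospho1 (ENSMUSG00000050860, chr11:95824499-95832140, plus strand) encodes the phosphatase that frees phosphate from phosphocholine and phosphoethanolamine inside matrix vesicles. It measured 254, 246 and 381 CPM under H-151, 184, 360 and 462 CPM under PBS, and 124, 326 and 353 CPM under SR-717. The groups overlapped, and the 2 lowest libraries were again SR-717 replicate 1 and PBS replicate 1. Smpd3 (ENSMUSG00000031906, chr8:106252548-106337988, minus strand) encodes a neutral sphingomyelinase that supplies phosphocholine and is needed for bone mineralization. Its levels were 344, 316 and 424 CPM, 171, 507 and 616 CPM, and 118, 430 and 360 CPM, for H-151, PBS and SR-717 in that order. The same 2 libraries were lowest and the groups overlapped. The ratio of Phospho1 to Smpd3 in TPM lay between 2.74 and 4.43. Phospho1 shares positions with Zfp652 and Abi3, and Smpd3 with Prmt7, and the counts of both genes were not whole in 9 of 9 libraries, so reads may have been divided between overlapping genes.

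Enpp1 (ENSMUSG00000037370, chr10:24637914-24712159, minus strand) encodes the enzyme that makes extracellular pyrophosphate. Its levels were 108, 154 and 78.7 CPM under H-151, 94.0, 94.6 and 127 CPM under PBS, and 54.8, 85.8 and 89.8 CPM under SR-717. In CPM, all 3 SR-717 libraries lay below all 3 PBS libraries, while the H-151 libraries spanned both. In TPM the groups overlapped, with SR-717 replicate 3 (28.75 TPM) above PBS replicate 1 (28.49 TPM). Alpl, whose product degrades pyrophosphate, was far more abundant: the ratio of Enpp1 to Alpl in TPM had a median of 0.0427 and a range of 0.0313 to 0.115. The highest ratio was in H-151 replicate 2 and the lowest in H-151 replicate 3, so the H-151 group held both ends.

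Slc20a1 (ENSMUSG00000027397, chr2:129198764-129211616, plus strand) and Slc20a2 (ENSMUSG00000037656, chr8:22476788-22569612, plus strand) encode the sodium-dependent phosphate transporters PiT-1 and PiT-2. Slc20a1 measured 43.4, 46.0 and 35.1 CPM under H-151, 41.7, 50.5 and 38.9 CPM under PBS, and 52.6, 41.7 and 42.6 CPM under SR-717. Slc20a2 measured 71.0, 60.8 and 85.7 CPM, 62.4, 71.0 and 90.6 CPM, and 64.5, 74.5 and 86.4 CPM in the same order. Both were the steadiest of the 9 genes, with an SD of log2 CPM over the 9 libraries of 0.179 for Slc20a1 and 0.214 for Slc20a2, against 0.421 to 0.936 for the other 7. Slc20a2 shares positions with Smim19 on the opposite strand.

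Pdpn (ENSMUSG00000028583, chr4:143267431-143299564, minus strand) encodes podoplanin, a membrane glycoprotein of early osteocytes that takes part in dendrite growth. It is also made by lymphatic endothelium, some fibroblastic and inflammatory cells and basal keratinocytes. Its levels were 64.6, 53.5 and 37.3 CPM under H-151, 102, 35.5 and 34.9 CPM under PBS, and 144, 44.8 and 50.9 CPM under SR-717. The pattern was the reverse of that of Phospho1 and Smpd3: SR-717 replicate 1 and PBS replicate 1, lowest for those genes, were the 2 highest for Pdpn. The lymphatic markers summed to 76.4 to 193 CPM over the PBS libraries, 82.9 to 172 CPM over H-151 and 115 to 148 CPM over SR-717. Their mean log2 CPM was highest in SR-717 replicate 1 (4.144) and PBS replicate 1 (4.128), followed by H-151 replicate 2 (3.981). Of these markers, Lyve1, Prox1 and Mmrn1 were highest in SR-717 replicate 1 and PBS replicate 1. The same 2 libraries were not the highest for Flt4, Ccl21a or Reln. Keratinocyte markers summed to at most 11.2 CPM. Fibroblast markers summed to 16440 CPM in SR-717 replicate 1, 15950 CPM in PBS replicate 1 and 15940 CPM in H-151 replicate 2, and to between 9145 and 14010 CPM in the other 6 libraries. Macrophage markers summed to 2150 CPM in SR-717 replicate 1 and 1457 CPM in PBS replicate 1, the 2 libraries highest for Pdpn. In the remaining libraries they summed to between 917 and 1236 CPM. The part of any of these cell types in the Pdpn level was not tested.

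**Figure D1:**
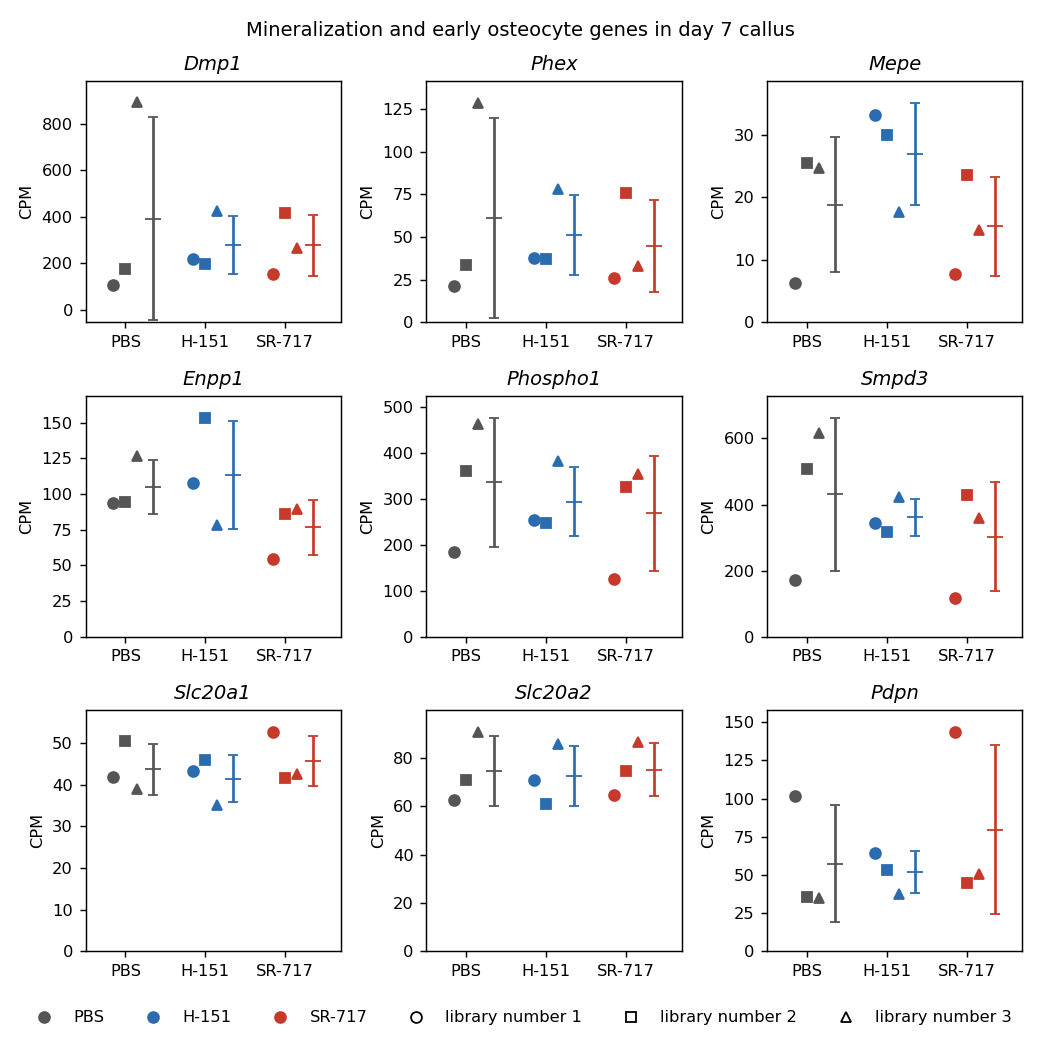
Level of each of the 9 genes in every library, in CPM on a linear axis, by group. Points are libraries, their shape gives the replicate number, and bars give the mean and SD of 3 libraries. Dmp1 and Phex stand highest in PBS replicate 3, and Pdpn in SR-717 replicate 1.

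The comparison of the agonist with the inhibitor asks what opposite changes of STING activity do to the callus. None of the 9 genes passed edgeR's quasi-likelihood test between SR-717 and H-151. The call required an unadjusted p under 0.05 and at least 1.5-fold, the thresholds that the study states, and 0 of 9 genes met it, against 0.756% of all 14151 genes tested. No gene of the 9 had an unadjusted p under 0.05 either, by edgeR or by DESeq2, against 1.03% of all genes tested by edgeR. The groups overlapped for all 9, whereas 5.18% of tested genes showed no overlap. At a Benjamini-Hochberg adjusted p under 0.05, edgeR called 0 of the 14151 genes, with 146 at an unadjusted p under 0.05, and DESeq2 called 1 gene. Whether a library is 1 animal or a pool is not stated in the sources used here, so p-values measure only the spread between these libraries, which may be technical in part.

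The differences farthest from 0 in this comparison belonged to Mepe, Pdpn and Enpp1. Mepe had a log2 fold change of -0.82 (SE 0.44, 95% interval -1.89 to 0.25; edgeR adjusted p = 0.996). Enpp1 had -0.57 (SE 0.30, interval -1.31 to 0.16), and Pdpn 0.61 (SE 0.49, interval -0.57 to 1.79). Each interval includes 0. Mepe was lower in SR-717 in all 3 same-numbered pairs, with log2 ratios of -2.11, -0.35 and -0.26, and was the 1 gene of the 9 to keep a direction, against 21.2% of tested genes. For Dmp1 the difference was -0.01 (SE 0.45, interval -1.10 to 1.07), an interval wide enough to hold a 2-fold change either way. The transporters were bounded more closely, at 0.13 for Slc20a1 (interval -0.27 to 0.52) and 0.04 for Slc20a2 (interval -0.39 to 0.48). Single libraries decided several values. Without SR-717 replicate 2, Mepe passed the call at -1.28 (edgeR unadjusted p = 0.0259), and without H-151 replicate 3, Enpp1 passed it at -0.78 (edgeR unadjusted p = 0.0395). Without SR-717 replicate 1, the values of Dmp1 (0.28), Phex (0.09), Phospho1 (0.20), Smpd3 (0.12) and Pdpn (-0.13) turned in sign.

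Compared with PBS, SR-717 callus had lower values of 6 of the 9 genes and higher values of 3, and 0 of 9 passed the call, against 0.519% of 14070 genes tested. None had an unadjusted p under 0.05, against 0.689%. The median log2 fold change of the 9 was -0.32, and that of all tested genes was 0.01. Enpp1 was the 1 gene of the 9 whose groups did not overlap in CPM, at 76.8 ± 19.2 CPM for SR-717 and 105 ± 18.7 CPM for PBS (SD, n = 3 each), and 3.75% of all tested genes showed no overlap. In TPM, Enpp1 did overlap. Its log2 fold change was -0.45 (SE 0.24, interval -1.04 to 0.14; edgeR adjusted p = 1.00). Smpd3 had -0.51 (SE 0.62), Dmp1 -0.50 (SE 0.83), Phex -0.45 (SE 0.75), Phospho1 -0.32 (SE 0.49), Mepe -0.30 (SE 0.61) and Pdpn 0.47 (SE 0.62), and none of these exceeded the spread between libraries. Single libraries moved them. Without SR-717 replicate 1, Pdpn turned to -0.27, Mepe to 0.04 and Phospho1 to 0.03, Smpd3 went to -0.11, Enpp1 to -0.25 and the median of the 9 to -0.11. Without PBS replicate 1, Pdpn was at 1.18, Smpd3 at -0.89, Phospho1 at -0.62 and Mepe at -0.71. Without PBS replicate 3, Dmp1 turned to 0.98 and Phex to 0.71, Smpd3 went to -0.16, and the median of the 9 was -0.02.

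Deviations from the group means correlated between same-numbered libraries in this comparison, at 0.65, 0.34 and 0.14 for numbers 1, 2 and 3. The pairs were therefore also read number by number. Libraries of different numbers were not compared in this way, and the labels do not say what a number stands for. The pairing, on which the block p-values below rest, is thus an assumption. Smpd3 was lower in SR-717 in each pair, with log2 ratios of -0.54, -0.24 and -0.77 for numbers 1, 2 and 3. Phospho1 gave -0.56, -0.14 and -0.39, and Enpp1 gave -0.78, -0.14 and -0.50. Pdpn was higher in each pair, at 0.49, 0.34 and 0.55. These 4 of 9 genes kept 1 direction in all 3 pairs, as did 23.4% of all tested genes. When replicate number entered the fit as a block, the unadjusted edgeR p was 0.0232 for Pdpn (log2 fold change 0.46), 0.0361 for Smpd3 (-0.52), 0.0481 for Enpp1 (-0.47) and 0.0808 for Phospho1 (-0.36). That makes 3 of 9 genes under 0.05, against 3.8% of all tested genes. However, 0 of 9 also reached 1.5-fold, against 3.15%, and the edgeR adjusted p of each was 0.999. Smpd3 and Pdpn are not separate results: centred within replicate number, their log2 CPM had a Pearson r of -0.964. On that scale Phospho1 had an r of 0.973 with Smpd3, and Enpp1 had 0.464. Without both libraries numbered 1, an alternative chosen after seeing the data, Pdpn was at 0.46 (edgeR unadjusted p = 0.0348) and Smpd3 at -0.49 (edgeR unadjusted p = 0.0759).

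**Figure D2:**
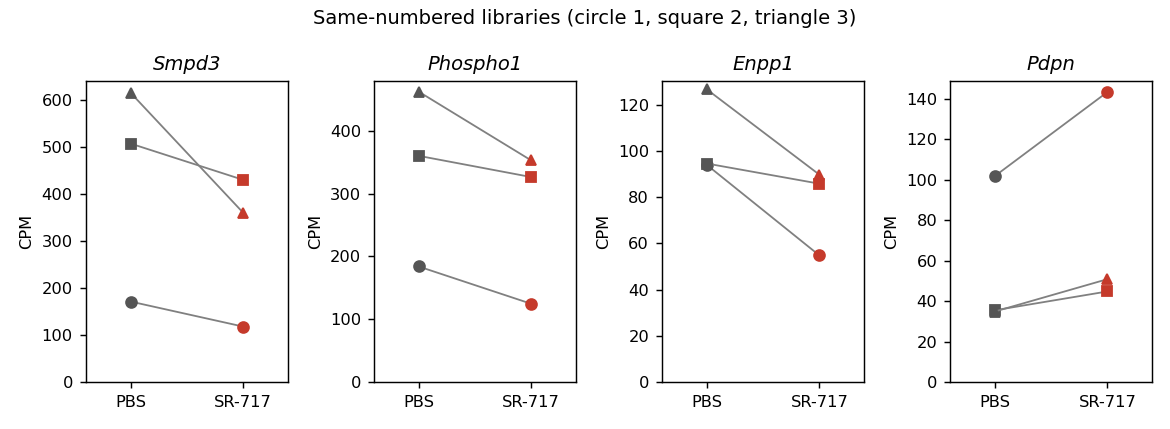
Level in CPM (linear axis from 0) of the 4 genes that kept 1 direction, in the PBS and SR-717 libraries, with lines joining libraries of the same replicate number (circle 1, square 2, triangle 3). All 3 lines go down from PBS to SR-717 for Smpd3, Phospho1 and Enpp1 and up for Pdpn.

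Compared with PBS, 0 of 9 genes passed the call under H-151, against 0.426% of 14085 genes tested. None had an unadjusted p under 0.05, against 0.646%, and the groups overlapped for all 9, with no overlap in 3.87% of tested genes. This comparison uses the same PBS libraries as the SR-717 comparison, so the 2 are not independent. Mepe had the value farthest from 0, at 0.52 (SE 0.52, interval -0.71 to 1.74; edgeR adjusted p = 1.00), and leaving out PBS replicate 1, its lowest library, took it to 0.11. Dmp1 was at -0.49 (SE 0.79), Phex at -0.26 (SE 0.68), Smpd3 at -0.25 (SE 0.44), Phospho1 at -0.19 (SE 0.35), Pdpn at -0.15 (SE 0.45), Enpp1 at 0.11 (SE 0.26), Slc20a1 at -0.07 (SE 0.16) and Slc20a2 at -0.04 (SE 0.19). No gene of the 9 kept 1 direction in all 3 same-numbered pairs, against 21.6% of tested genes, and with the block 0 of 9 were under an unadjusted p of 0.05, against 3.06%, or past the call, against 1.86%. Without PBS replicate 3, Dmp1 turned to 0.99 and Phex to 0.89. Without PBS replicate 1, Smpd3 passed the call at -0.62 (edgeR unadjusted p = 0.0186).

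**Figure D3:**
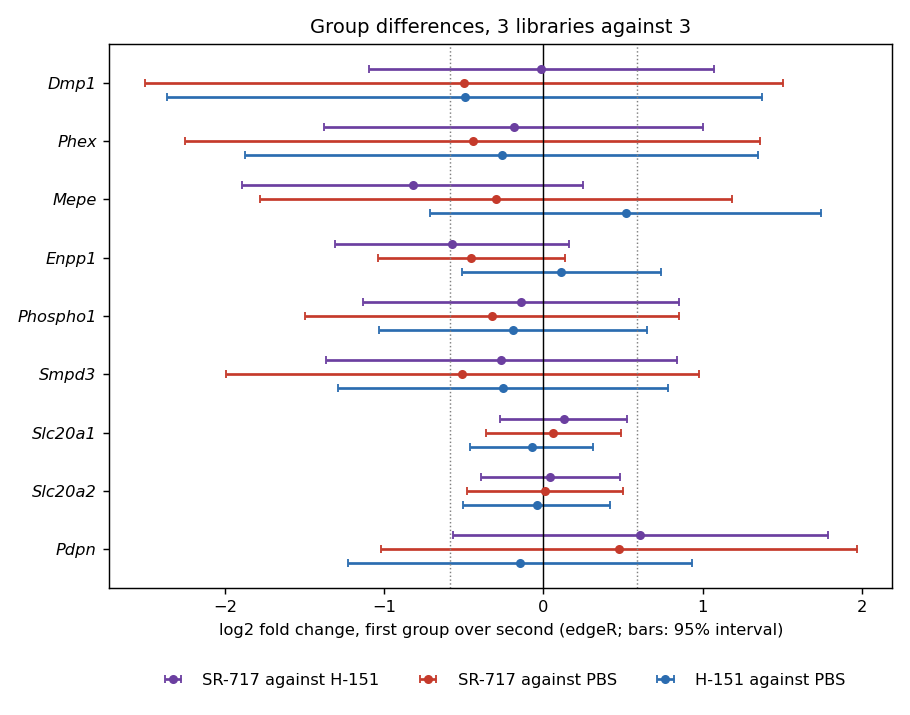
Log2 fold change of the 9 genes in the 3 comparisons, with 95% intervals from edgeR on 6 libraries each and dotted lines at 1.5-fold. Every interval includes 0, and the intervals of Slc20a1 and Slc20a2 are the narrowest.

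Other genes of the same processes were not called either. Of all tested genes, 0.756% were called for SR-717 against H-151, 0.519% for SR-717 against PBS and 0.426% for H-151 against PBS. At these shares, the short lists below would seldom hold a called gene. Of 19 further mineralization genes, 16 or 17 were tested, and none was called in any comparison. They include Alpl, whose product removes pyrophosphate, at a log2 fold change of -0.35 (SE 0.53) between SR-717 and PBS, the pyrophosphate exporter Ank at -0.14 (SE 0.24), and the kinase of secreted proteins Fam20c at 0.07 (SE 0.25). The matrix proteins Ibsp, Spp1 and Bglap were at -0.37 (SE 0.58), -0.19 (SE 0.42) and 0.22 (SE 0.63) in that comparison. Of 12 further osteocyte genes, 11 were tested and none was called. Sost, the osteocyte inhibitor of Wnt signalling, measured 16.5, 13.6 and 4.17 CPM under H-151, 1.37, 6.68 and 10.3 CPM under PBS, and 1.55, 6.43 and 3.15 CPM under SR-717. H-151 replicate 3 was inside the range of the SR-717 libraries, and the log2 fold change between SR-717 and H-151 was -1.63 (SE 0.68, interval -3.27 to 0.01; edgeR adjusted p = 0.996). Fgf23, the phosphate hormone that rises when Dmp1 or Phex is lost, was at most 0.981 CPM and was too low to test. All 12 osteoblast markers and all 11 chondrocyte markers were tested and none was called. Between SR-717 and PBS the osteoblast transcription factors Runx2 and Sp7 were at 0.03 (SE 0.34) and -0.42 (SE 0.57), the bone collagen gene Col1a1 at -0.04 (SE 0.37), and the cartilage collagen genes Col2a1 and Col10a1 at -1.03 (SE 1.44) and -1.19 (SE 1.58). The chondrocyte markers were below 0 in 11 of 11 against both PBS and H-151, with medians of -0.937 and -1.005 on the log2 scale. The medians of all tested genes were 0.0138 and 0.0186. Without SR-717 replicate 1, whose chondrocyte sum was the lowest, the chondrocyte medians were -0.432 and -0.470. Without SR-717 replicate 2 they were -2.06 and -2.11. Against PBS, the median was -0.397 without PBS replicate 2 and -1.44 without PBS replicate 1. The part of chondrocytes in the values of the 9 genes was not tested.

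Over the 9 libraries some pairs of the genes varied closely together, but the pairs were not separate from each other. The correlations that follow describe log2 CPM across 9 libraries that share the 3 treatments and the differences in cell content. Dmp1 and Phex had a Pearson r of 0.973, and still 0.959 without the 2 libraries numbered 1 of SR-717 and PBS. Phospho1 and Smpd3 had an r of 0.969, and 0.868 without those libraries. Pdpn ran opposite to both, with an r of -0.968 to Phospho1 and -0.978 to Smpd3, and -0.858 and -0.865 without them. The 2 most alike pairs were also related to each other. Dmp1 had an r of 0.761 with Phospho1 and 0.735 with Smpd3, and Phex had 0.741 with each. Without the 2 libraries these values ran from 0.654 to 0.733, and centred within replicate number from 0.429 to 0.539. Of the 36 pairs of genes, 3 had an r above 0.8, the third being Dmp1 with Slc20a2 at 0.826, and 15 an r below 0. The pair of Mepe and Smpd3 had an r of 0.792 that went to -0.087 without the 2 libraries, so it rested on them. The transporters ran against each other, at -0.636 with and -0.688 without. With levels centred within replicate number, r was 0.967 for Dmp1 and Phex, 0.973 for Phospho1 and Smpd3, and -0.956 and -0.964 for Pdpn with Phospho1 and Smpd3, while Dmp1 with Slc20a2 was at 0.627 and the transporters at -0.122.

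**Figure D4:**
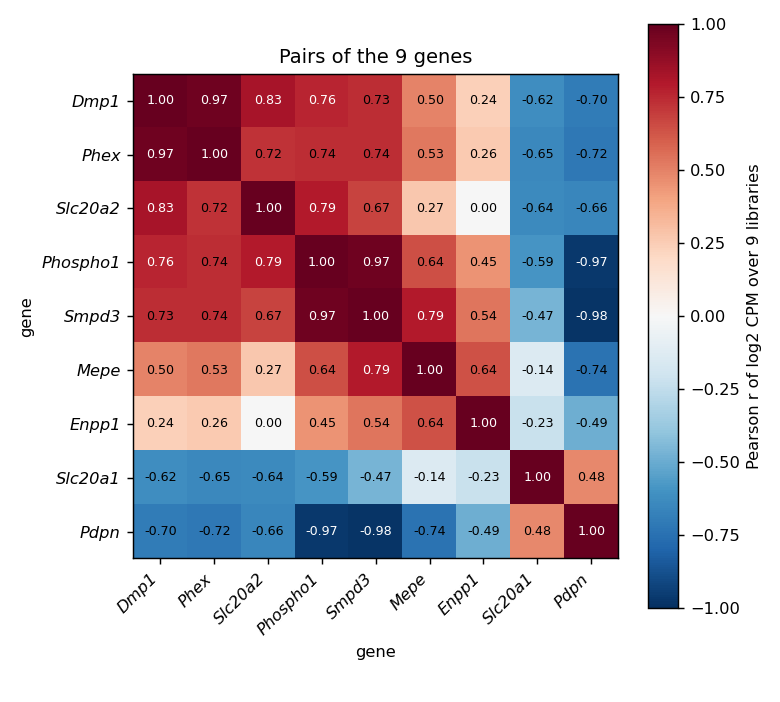
Pearson r of log2 CPM between the 9 genes over 9 libraries, written in each cell. Dmp1 with Phex and Phospho1 with Smpd3 form the most alike pairs, and Pdpn is negative with both of the latter.

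The level of each gene was then set against the mean log2 CPM of the 12 osteoblast markers, as 9 relations over 9 libraries, with exact permutation tests (two-sided) adjusted over the 9. Phospho1 followed the markers most closely, with an r of 0.982 (exact permutation p = 3.58e-05, adjusted p = 0.000322) and a Spearman rho of 0.950 (exact p = 0.000353, adjusted 0.00318). Subtracting the marker level lowered the SD of its log2 CPM from 0.592 to 0.113. Smpd3 had an r of 0.945 (exact p = 0.000331, adjusted 0.00149; rho 0.850, exact p = 0.00607, adjusted 0.0109), and its SD went from 0.758 to 0.283. Pdpn had an r of -0.932 (exact p = 0.000637, adjusted 0.00191; rho -0.867, exact p = 0.00451, adjusted 0.0101), and its SD went from 0.706 to 1.26. The vesicle genes thereby ran with the osteoblast markers and Pdpn against them. The osteoblast level was lowest in SR-717 replicate 1 (7.55) and PBS replicate 1 (8.29). The mean log2 CPM of the chondrocyte markers was lowest in the same libraries (3.88 and 6.16). The relation of the genes to the chondrocyte markers was not tested, so these relations are not shown to be particular to osteoblast markers.

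The farthest libraries on the osteoblast marker axis were SR-717 replicate 1 and PBS replicate 1. Without them the r was 0.930 for Phospho1 (exact p = 0.00456), 0.749 for Smpd3 (exact p = 0.0512) and -0.686 for Pdpn (exact p = 0.0905), so the signs were kept, and for Smpd3 and Pdpn the smaller set of 7 libraries no longer gave an exact p under 0.05. Slc20a2 had an r of 0.788 (exact p = 0.00643, adjusted 0.0145; rho 0.900, exact p = 0.00203, adjusted 0.00608) and 0.938 without them. Dmp1 had an r of 0.771 (exact p = 0.0158, adjusted 0.0236; rho 0.917, exact p = 0.00131, adjusted 0.00590) and 0.876 without them. Phex had an r of 0.757 (exact p = 0.0157, adjusted 0.0236; rho 0.767, exact p = 0.0214, adjusted 0.0321) and 0.791 without them. These 3 genes kept their sign without the 2 libraries, yet leaving out H-151 replicate 3 or PBS replicate 3 took each past an adjusted p of 0.05, as did SR-717 replicate 2 for Dmp1 and Phex and PBS replicate 1 for Dmp1. Slc20a1 had an r of -0.697 (exact p = 0.0379, adjusted 0.0487; rho -0.733, exact p = 0.0311, adjusted 0.0400), and -0.702 without the 2 farthest (exact p = 0.0770). Leaving out 1 library at a time, the r of Slc20a1 ran from -0.835 to -0.468, so its size depended on single libraries. Mepe (r 0.634, exact p = 0.0619, adjusted 0.0696; rho 0.183, exact p = 0.644, adjusted 0.724) and Enpp1 (r 0.473, exact p = 0.199, adjusted 0.199; rho 0.0830, exact p = 0.843, adjusted 0.843) did not pass, and their r without the 2 libraries was -0.571 and -0.427. These p-values take the 9 libraries as exchangeable.

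The relations were also computed with levels centred within replicate number, an alternative added after seeing the data. The centring spans all 3 groups, although deviations of same-numbered SR-717 and H-151 libraries correlated at only 0.34, 0.06 and 0.08. Libraries were permuted only within a number. The smallest p that these 216 exact permutations allow is 0.00463. The r was 0.957 for Phospho1 (exact permutation p = 0.0185), 0.918 for Smpd3 (exact p = 0.0231) and -0.896 for Pdpn (exact p = 0.0324), each with an adjusted p of 0.0972. For Dmp1 it went down to 0.467 (exact p = 0.171, adjusted 0.232), for Phex to 0.488 (exact p = 0.0926, adjusted 0.200) and for Slc20a2 to 0.642 (exact p = 0.111, adjusted 0.200). Within numbers, no relation was therefore under an adjusted p of 0.05. Centred within group in the same way, Phospho1 (0.984), Smpd3 (0.943), Dmp1 (0.796) and Slc20a2 (0.843) were under it, with adjusted p from exact permutation of 0.0278 for the first 3 and 0.0312 for Slc20a2. Phex (0.757) and Slc20a1 (-0.687), each at an adjusted p of 0.0893, and Pdpn (-0.928, adjusted p = 0.05) were not, by the same exact permutation.

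**Figure D5:**
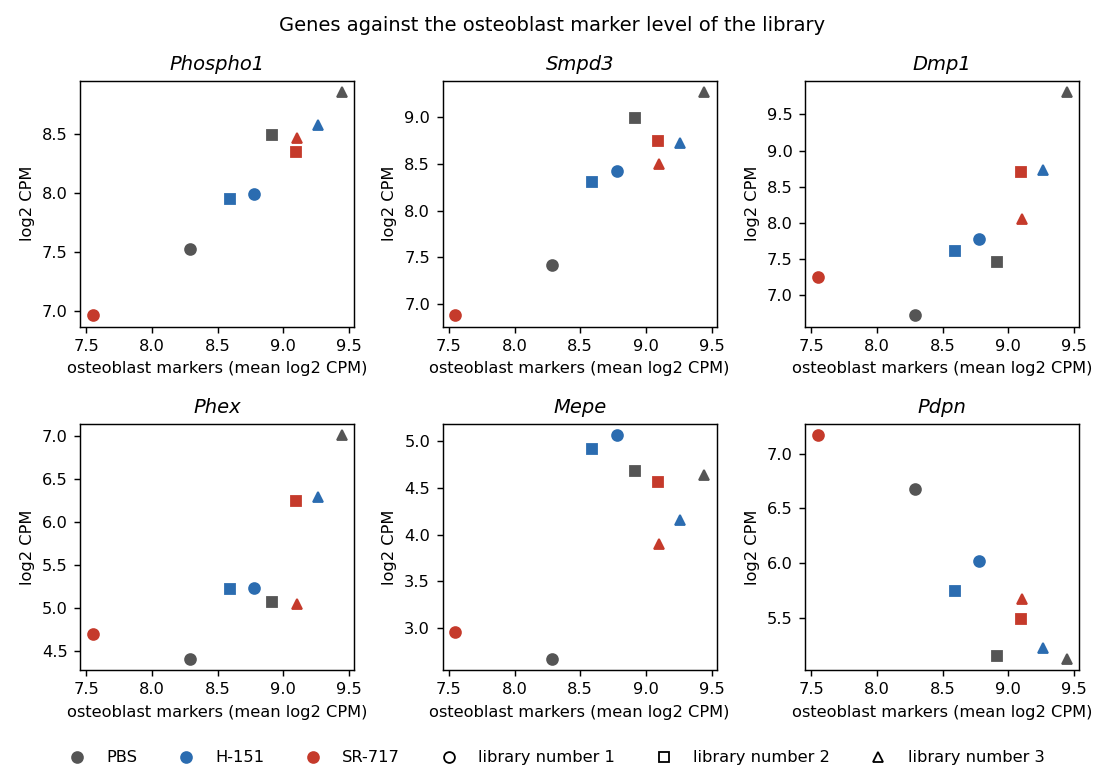
Level of Phospho1, Smpd3, Dmp1, Phex, Mepe and Pdpn (log2 CPM) against the mean level of 12 osteoblast markers (mean log2 CPM), 1 point per library, coloured by group and shaped by replicate number. Phospho1 and Smpd3 lie along a rising line, Pdpn along a falling one, and SR-717 replicate 1 is the leftmost point.

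Outside the 9, the genes most like each of them were taken by Pearson r over the 9 libraries among 11399 genes with a mean of at least 5 CPM. For Phospho1 they were Arnt2 (r 0.994), Sp7 (0.992), the transcription factor that sets osteoblast identity, and Epha2 (0.991). For Smpd3 they were Pcsk6 (0.990), Pik3ip1 (0.988) and Col11a1 (0.983), a fibrillar collagen of cartilage. Mepe was most like Sost (0.967, rho 0.983), then Agbl5 (0.963) and Chst10 (0.960). Pdpn was most like the monocyte chemokine Ccl2 (0.989), then Hcar2 (0.986) and the cystine transporter Slc7a11 (0.983).

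For Dmp1 the most alike genes were Snn (r 0.961), Osbpl1a (0.960) and Tmem126a (0.956), and for Phex they were Ctnnb1 (0.955), which encodes the Wnt effector beta-catenin, Psrc1 (0.949) and Pacsin1 (0.947). Enpp1 was most like Anxa8 (0.968), C1qtnf3 (0.954) and Vangl1 (0.932). For Slc20a1 they were Naa60 (0.982), Arhgdia (0.959) and Arhgef1 (0.957), and for Slc20a2 Entpd3 (0.963), S1pr3 (0.953) and Etfbkmt (0.947). With 9 libraries and this many genes searched, values of this size describe likeness in these libraries. No r of this search was recomputed without SR-717 replicate 1 and PBS replicate 1, so how far the values rest on them is not known.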

How the data were processed

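Libraries were assigned to groups and replicate numbers by their labels. The authors deposited expected counts per gene, not normalized, and TPM, scaled to gene length and library total by the authors. The build in the submitters' processing notes is mm10. The aligner, counting program and strand setting are not given in the sources used here. All columns of per-sample values were read. The 9 genes and the lists were chosen with earlier results of these data known. The other genes named were a set list of mineralization, osteocyte, osteoblast and chondrocyte genes, any listed gene that was called (none was), and the 3 tested genes most alike to each of the 9.

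Expected counts were rounded to whole numbers (8.91% were not whole), whereas the design had assumed counts. Pairs of groups (6 libraries) were compared with edgeR 4.0.16 in R 4.3.3: filterByExpr (count of 10, total of 15), TMM, and the quasi-likelihood test with Benjamini-Hochberg adjustment. Standard errors came from the F statistic. Log2 CPM used a prior count of 2. Depth was 16987398 to 23272480 counts per library, and with 3 libraries per group the number of libraries limits the precision. DESeq2 1.42.0, other filters, all 9 libraries in 1 fit, a replicate block, a 2-fold threshold, leaving out each library, and centring within replicate number or group were the alternatives. The scripts were tested on simulated data.

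Same-numbered libraries were checked for shared deviations from their group means. The correlations were 0.65, 0.34 and 0.14 for SR-717 and PBS and 0.30, 0.49 and 0.50 for H-151 and PBS, so the block was given beside these comparisons. For SR-717 and H-151 they were 0.34, 0.06 and 0.08. The pairing was read from these data, since the labels do not say what a number stands for. Libraries of different numbers were not correlated, so these values do not establish that the numbers pair. Gene positions are from GENCODE on GRCm38.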

Additional observations from a re-analysis of the deposited data

How the results depend on the processing

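The 9 genes stayed uncalled under every alternative except when 1 library was left out (0 to 1 of 9 called for SR-717 against H-151, 0 to 0 for SR-717 against PBS, 0 to 1 for H-151 against PBS). With 3 libraries per group, an interval for Dmp1 spans several-fold, and depth was not the limit for any of the 9 genes.

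Counts of all genes called moved more. For SR-717 against H-151 (107) they were 209 with DESeq2, 223 with no filter, 61 with a mean count of at least 50, 171 with all 9 libraries in 1 fit, 69 at 2-fold, and 64 to 661 leaving out 1 library. For SR-717 against PBS (73) they were 138, 194, 37, 176 and 41 under the same alternatives, 443 with the replicate block, 118 without both libraries numbered 1 (chosen after seeing the data), and 95 to 319 leaving out 1 library. For H-151 against PBS (60) they were 127 with no filter, 28 with a mean count of at least 50, 33 at 2-fold, 262 with the replicate block, and 43 to 698 leaving out 1 library. Among the fits that left out 1 library, the highest counts came without SR-717 replicate 3 (661 and 319) and without PBS replicate 2 (698). The cause was not tested.

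With the replicate block, Dmp1 turned to 0.0487 for SR-717 against PBS, and Dmp1, Phex and Pdpn turned to 0.0409, 0.0741 and 0.0103 for H-151 against PBS. For SR-717 against H-151, whose same-numbered correlations were 0.34, 0.06 and 0.08, the block gave 143 genes called and 0 of the 9. Slc20a1 was at -0.0674 for SR-717 against PBS without both libraries numbered 1.

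Leaving out 1 library at a time gave these ranges of log2 fold change. For SR-717 against H-151, Dmp1 ran from -0.43 to 0.42, Phex from -0.80 to 0.25, Phospho1 from -0.39 to 0.20, Smpd3 from -0.61 to 0.12, Slc20a2 from -0.07 to 0.18, Pdpn from -0.13 to 0.89, Mepe from -1.28 to -0.50, Enpp1 from -0.78 to -0.29 and Slc20a1 from 0.01 to 0.21. For SR-717 against PBS, Dmp1 ran from -0.95 to 0.98, Phex from -1.06 to 0.71, Mepe from -0.75 to 0.0392, Phospho1 from -0.62 to 0.0272, Slc20a1 from -0.0487 to 0.17, Slc20a2 from -0.10 to 0.17, Pdpn from -0.27 to 1.18, Smpd3 from -0.89 to -0.11 and Enpp1 from -0.58 to -0.25. For H-151 against PBS, Dmp1 ran from -0.93 to 0.99, Phex from -0.71 to 0.89, Enpp1 from -0.17 to 0.32, Phospho1 from -0.47 to 0.11, Smpd3 from -0.62 to 0.0924, Slc20a1 from -0.15 to 0.0539, Slc20a2 from -0.18 to 0.12, Pdpn from -0.40 to 0.57 and Mepe from 0.11 to 0.82.

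For the relation to the osteoblast markers, the TPM scale gave an r of 0.684 for Mepe, now past the threshold, and -0.365 for Slc20a1, no longer past it. Leaving out 1 library, r ran from 0.738 to 0.918 for Dmp1, 0.702 to 0.855 for Phex, 0.732 to 0.924 for Slc20a2, -0.835 to -0.468 for Slc20a1 and -0.204 to 0.704 for Enpp1. With the replicate block (levels centred within replicate number, added after seeing the data), the 7 relations under an adjusted p of 0.05 no longer were, at an r of 0.957 for Phospho1, 0.918 for Smpd3, -0.896 for Pdpn, 0.642 for Slc20a2, 0.488 for Phex, 0.467 for Dmp1 and -0.636 for Slc20a1. Centred within group, Phex (0.757), Slc20a1 (-0.687) and Pdpn (-0.928) no longer were.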
